A study of Mus musculus with 6 samples.

Results

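The 10 genes described here are core parts of the circadian clock: Per1, Per2, Per3, Cry1, Cry2, Arntl (also written Bmal1), Clock, Nr1d1, Dbp and Nfil3. They were chosen by symbol, with earlier results of these data known, and their probes were found through the transcript accessions of the array. All 10 were on the array, with 19 probes of 56605, and all 10 had a probe that could be tested, among 13138 genes tested. The cells were TM3, an immortal mouse line of Leydig origin, Leydig cells being the testis cells that make testosterone. One group of 3 samples received 10 µM 4-nitrophenol (PNP in what follows, nPNP in the labels), a breakdown product of some organophosphate pesticides that also occurs in diesel exhaust, and was collected after 24 h. The other group of 3 received none (0 µM). All 6 samples came from this 1 male cell line, and the labels name no genetic change, no vehicle, no synchronising step and no time of day. Whether the 3 samples of a group were separate cultures is not stated, so every p-value rests on a spread between samples that may be technical alone.

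In most mammalian cells the clock is a loop of transcription and repression. The activators CLOCK and ARNTL bind E-boxes and switch on the Per and Cry genes, whose proteins return to block the activators, and they also switch on Nr1d1, whose product REV-ERBα represses Arntl through orphan receptor elements. DBP and NFIL3 bind the same D-box elements as activator and repressor. In a running rhythm, transcripts of Dbp, Nr1d1 and the Per genes peak near one another, and Arntl peaks when they are low. Cells of a dish each keep such a rhythm, and they hold it in common only for a time after a shared signal such as fresh serum. The testis is known as a tissue in which clock transcripts cycle weakly in whole-organ RNA, while Leydig cells have been described as clock-bearing.

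One 1-channel Agilent array was used per sample, and the 6 arrays shared 1 slide and 1 scan. Values are scaled log2 signals, meaning the log2 of the background-corrected spot signal minus the 75th percentile of the same array, so that 1 unit is a doubling and 0 is a bright probe. They can be compared between arrays for 1 probe, but not between probes. Of the non-control spots, 59.9% to 62.6% were well above background on each array, and no spot was saturated. The log2 of the 75th percentile that was subtracted averaged 12.44 in untreated cells and 12.27 in treated cells (exact permutation p = 0.1, two-sided). It was lower on every PNP array than on any control. This scaling therefore moved every difference, PNP minus control, upward, and the positive signs below depend in part on it. Spots marked as outliers made up 7.75% ± 1.27 (SD, n = 3) of control arrays and 12.3% ± 0.814 (SD, n = 3) of PNP arrays (exact permutation p = 0.1, two-sided, the smallest that 3 against 3 allows). Such spots were left out, which touched Cry1, Clock and Nfil3 below. Of 8 Leydig genes on the array, Star and Nr5a1 were well above background on all 6 arrays and Cyp11a1, Hsd3b6, Hsd17b3 and Lhcgr on none. Of the markers of other testicular cells, 5 of 5 of peritubular myoid cells (such as Acta2 and Myh11) and 5 of 9 of Sertoli cells (such as Sox9) were above background on all 6, and so were 3 of 7 of germ cells, against 0 of 5 of endothelial cells. Of 5 macrophage genes, Csf1r, Cd68 and Lyz2 were above background on all 6 arrays and Ptprc and Adgre1 on none. The log2 of summed myoid signals, over the 3 genes with no outlier spot (Myh11, Des and Tagln), was 2.25 to 2.30 on control arrays and 2.31 to 2.45 on PNP arrays. With all 5 genes and outlier spots kept, among them that of Acta2 on PNP replicate 1, it was 4.03 to 4.13 and 4.16 to 4.35. The log2 of summed macrophage signals was 1.83 to 2.07 on control arrays and 1.98 to 2.29 on PNP arrays, and the part of either list in the results below was not tested.

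The comparison of PNP with control cells asks whether the compound changed the clock transcripts. No clock gene passed the test. Cry1 lay 0.31 log2 units higher with PNP (SE 0.12) with an adjusted p of 0.740 by limma over all 13138 genes, and Per3 lay 0.43 higher (SE 0.22, adjusted p = 0.811). Arntl was the single member with a negative difference, at -0.23 (SE 0.20, adjusted p = 0.921). Dbp, Nr1d1, Per3, Per1 and Cry2 were high on PNP replicates 1 and 3 and low on PNP replicate 2, and Arntl did the reverse, so the PNP arrays differed among themselves by more than the group means did. The median 95% interval of a member's difference was ± 0.33 log2 units, against ± 0.28 over all genes.

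Of the 10 members, 0 had an adjusted p below 0.05, as had 0% of all genes. At an unadjusted p below 0.05 there was 1 member, Cry1, which was higher with PNP, against 6.52% of all genes in either direction and 5.02% with higher signal. Of the 14 member probes tested 1 by 1, the same Cry1 probe alone had an unadjusted p below 0.05, against 6.99% of all probes. The 3 PNP values lay wholly above the controls for Cry1, and the 2 measured PNP values did so for Nfil3, which is 2 of 10 members above and 0 below, against 9.66% of all genes above, 3.75% below and 13.4% in either direction. The Nfil3 spot left out as an outlier, on PNP replicate 2, read 0.63 when kept, below every control. The difference was positive for 9 of 10 members and for 63% of all genes, with a median of 0.19 over the members and 0.04 over all genes. With arrays scaled on their median or by quantile normalization the member count stayed at 9 of 10, against 44.2% and 53.7% of all genes. In the authors' deposited normalized values it was 8 of 10, against 51.5% of all genes. The median over the members was 0.13 with median scaling, 0.17 by quantile normalization and 0.10 in the deposited values. Over all genes the median was -0.02, 0.01 and 0.004 in the same order.

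**Figure D1:**
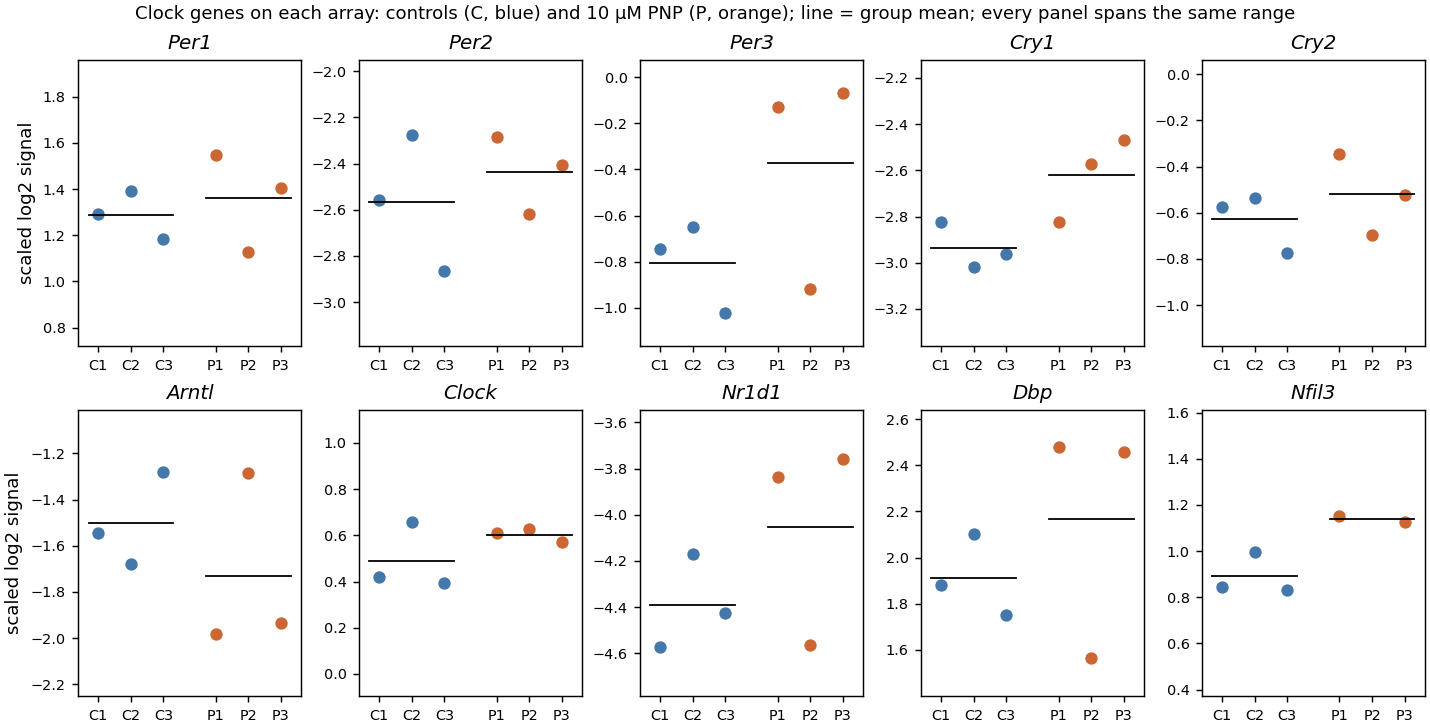
Scaled log2 signal (y) of the 10 clock genes on the 6 arrays (x), with C1 to C3 the control replicates in blue, P1 to P3 the PNP replicates in orange and a line at each group mean. Every panel spans the same range, and Nfil3 has no point for P2, whose spot was marked as an outlier. Dbp runs from 1.56 on P2 to 2.48 on P1, outside the control values on both sides.

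The Period genes encode the repressors that set the length of the cycle, and of the 3 Per3 had the largest difference. Per3 had signals of -0.74, -0.65 and -1.02 on control replicates 1, 2 and 3 and of -0.13, -0.92 and -0.07 on PNP replicates 1, 2 and 3. PNP replicates 1 and 3 thus stood above every control, and PNP replicate 2 stood between the controls. The 95% interval of the Per3 difference ran from -0.08 to 0.95, and without PNP replicate 2 the difference was 0.71 (SE 0.13, adjusted p = 0.168). A second Per3 probe, on another transcript record, was well above background on 0 arrays.

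Per1, which also responds at once to serum, cAMP and glucocorticoids, differed by 0.07 (95% interval -0.22 to 0.37, adjusted p = 0.957). Its signals were 1.29, 1.39 and 1.18 on controls and 1.55, 1.13 and 1.40 with PNP. The highest and the lowest of the 6 values were both PNP arrays, replicates 1 and 2. Per1 turned to -0.012 with slide column as a block, and to -0.022 without PNP replicate 1.

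Per2 differed by 0.13 (95% interval -0.24 to 0.50, adjusted p = 0.950). Controls had -2.56, -2.28 and -2.87 and PNP arrays -2.28, -2.62 and -2.41, so that the PNP values fell within the range of the controls. Without control replicate 3, the lowest array, the Per2 difference was -0.021. Its second probe differed by 0.60 (SE 0.30, adjusted p = 0.739 over all probes), with controls from -5.22 to -4.93. PNP replicates 1, 2 and 3 had -3.69, -5.00 and -4.73 on that probe, so PNP replicate 1 carried most of its difference.

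The cryptochromes are the stronger repressors of the pair formed with PER proteins. Cry1 had signals of -2.83, -3.02 and -2.96 on controls and of -2.82, -2.57 and -2.47 with PNP. All 3 PNP values were above all 3 controls, although PNP replicate 1 stood level with control replicate 1. The 95% interval of the difference ran from 0.04 to 0.59 (unadjusted p = 0.0295, adjusted p = 0.740). The second Cry1 probe had spots marked as outliers on all 6 arrays and could not be tested as processed here. With outlier spots kept it had -2.87, -1.62 and -2.19 on controls and -2.54, -1.99 and -2.62 with PNP, a difference of -0.15 (SE 0.30), so the 2 probes pointed opposite ways. In the authors' deposited normalized values, where that probe is the brighter, Cry1 stood at -0.18 (SE 0.32).

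Cry2 differed by 0.11 (95% interval -0.17 to 0.39, adjusted p = 0.946). Its controls had -0.58, -0.54 and -0.77 and its PNP arrays -0.34, -0.70 and -0.52. Cry2 on PNP replicate 1 was the highest of the 6 values, and PNP replicate 2 lay between the controls. An interval that reaches 0.39 does not show that Cry2 stayed level.

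The activators gave a negative and a positive difference, neither past the test. Arntl had signals of -1.55, -1.68 and -1.28 on controls and of -1.98, -1.28 and -1.93 with PNP. PNP replicates 1 and 3 lay below every control and PNP replicate 2 lay level with control replicate 3, the highest of the controls. The difference of -0.23 had a 95% interval of -0.68 to 0.22, and without PNP replicate 2 it was -0.45 (SE 0.13, adjusted p = 0.252). The second tested Arntl probe differed by -0.16 (SE 0.21), with its lowest value of -5.06 on PNP replicate 1 and its highest of -4.18 on PNP replicate 2, and the third was well above background on 1 control array alone.

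Clock, the partner of ARNTL, differed by 0.11 (95% interval -0.12 to 0.35, adjusted p = 0.933). The PNP arrays lay close together at 0.61, 0.63 and 0.57, inside the control range of 0.39 to 0.66 that control replicate 2 topped. Of the 3 Clock probes, 1 was not above background on any array and 1 had outlier spots on 5 of the 6 arrays. With those spots kept it differed by -0.06 (SE 0.12).

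Nr1d1 encodes REV-ERBα, the repressor of Arntl, and Dbp is a direct target of the activators with a wide daily swing. Nr1d1 had -4.57, -4.17 and -4.43 on controls and -3.84, -4.56 and -3.76 with PNP. The difference was 0.34 (95% interval -0.16 to 0.83, adjusted p = 0.878), and 0.59 (SE 0.13, adjusted p = 0.205) without PNP replicate 2. Dbp had 1.88, 2.10 and 1.75 on controls and 2.48, 1.56 and 2.46 with PNP. PNP replicates 1 and 3 were above all controls and PNP replicate 2 below all of them.

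The Dbp difference was 0.25 (95% interval -0.29 to 0.80, adjusted p = 0.938), or 0.56 (SE 0.12, adjusted p = 0.205) without PNP replicate 2. Its second probe gave 1.26, 1.49 and 1.06 on controls and 2.02, 0.66 and 1.92 with PNP, the same order of the 6 arrays. Both Dbp probes thus placed PNP replicate 2 lowest. Nfil3, the repressor at D-boxes, had 0.84, 1.00 and 0.83 on controls and 1.15 and 1.13 on PNP replicates 1 and 3, a difference of 0.25 (SE 0.11, adjusted p = 0.779) that rests on these 2 PNP arrays. PNP replicate 2 had an outlier spot, which read 0.63 when kept and brought this probe to 0.08 (SE 0.16). The second Nfil3 probe, measured on all 6 arrays, differed by 0.07 (SE 0.13), with 1.18, 0.74 and 1.11 with PNP and 0.89 to 0.96 on controls.

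**Figure D2:**
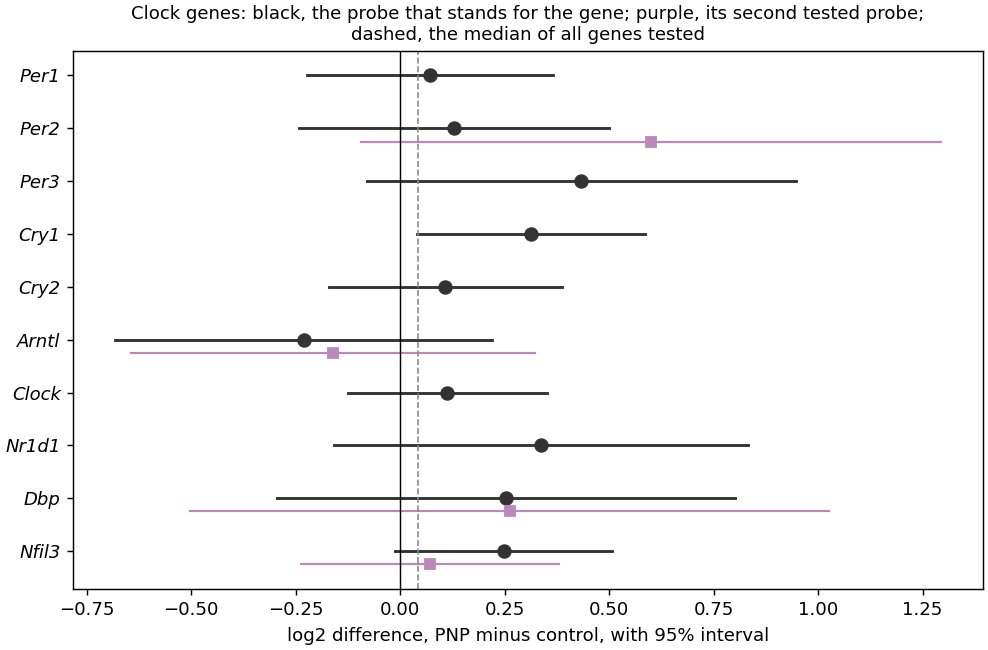
Log2 difference, PNP minus control (x), of each clock gene (y) with its 95% interval from limma, in black for the probe that stands for the gene and in purple for its second tested probe where there is 1. The Cry1 interval, from 0.04 to 0.59, is the single black one that does not reach 0, and the adjusted p of Cry1 was 0.740. The dashed line marks the median of all genes at 0.04.

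Leaving out PNP replicate 2 brought 5 of the 10 members, Per3, Arntl, Nr1d1, Dbp and Nfil3, to an unadjusted p below 0.05, and Cry1 to 0.0604. Nfil3 had no value on that array, so its difference stayed at 0.25. Only its unadjusted p by limma moved, from 0.0583 to 0.0437. In the same fit 13.3% of all genes had an unadjusted p below 0.05, and 0 members had an adjusted one, the lowest being the 0.168 of Per3. That fit sets only PNP arrays of even slide columns against controls of both kinds. An array's slide column is its place on the slide, taken from the file headers. Odd columns held control replicates 1 and 3 and PNP replicate 2, and even columns held control replicate 2 and PNP replicates 1 and 3.

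Of the 9 members with 6 values, the even columns lay wholly above the odd ones for 6 (Cry2, Per1, Per2, Per3, Nr1d1 and Dbp) and wholly below for 1 (Arntl), and they overlapped for Cry1 and Clock. Over all genes with 6 values, 11.6% had the even columns wholly above, 7.26% wholly below and 18.9% either. The treatment groups were separate for 1 of these 9 members, Cry1. Over all 13138 genes tested, those with missing values included, they were separate for 13.4%. Which of slide column, culture and harvest goes with this order cannot be told apart in 6 arrays.

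Within even columns, PNP minus control was 0.55 for Per3, 0.37 for Nr1d1, 0.36 for Dbp and -0.28 for Arntl, each from 2 PNP arrays and 1 control. Within odd columns, with 1 PNP array and 2 controls, the same genes gave -0.03, -0.07, -0.25 and 0.13, the opposite sign each time. Cry1 kept its sign, at 0.37 in even and 0.32 in odd columns, and with slide column as a block it differed by 0.35 (SE 0.13, adjusted p = 0.564). With that block Dbp differed by 0.06 (SE 0.15), Nr1d1 by 0.15 (SE 0.13) and Arntl by -0.07 (SE 0.13). Slide row 2 held PNP replicates 2 and 3 alone, so that row 1 sets PNP replicate 1 against the 3 controls. Within row 1 Cry1 differed by 0.11, less than its 0.31 over all arrays, while Per3 differed by 0.67, Dbp by 0.57, Nr1d1 by 0.55 and Arntl by -0.48, each more than over all arrays.

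The members that went up and down together over the arrays were read against Dbp, a choice made after the values were seen. Over the 6 arrays, which share 1 slide, 1 scan and 1 cell line, Pearson's r with Dbp was 0.96 for Per3, 0.95 for Nr1d1, 0.94 for Per1, 0.86 for Cry2 and 0.75 for Per2, and -0.98 for Arntl. After each group's mean was subtracted these values were 0.98, 0.96, 0.95, 0.84, 0.72 and -0.98, so the common order lay within the groups too. Cry1 (0.14, and -0.27 within groups) and Clock (0.34 and 0.17) did not share it. A larger r with Dbp, of either sign, than that of Arntl was found in 0.405% of genes with 6 values, and than that of Per2 in 22.6%.

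The start-site sequences of genes on both sides of this order, and of Cry1, which did not share it, are shown for the clock elements they carry. RefSeq windows of assembly GRCm38.p6, from 250 bases before to 50 bases after a transcript start, were given for 9 of the 10 members, in 13 windows. They were searched on both strands for the E-box CACGTG, the E′-box CACGTT, the D-boxes TTATGTAA and TTACGTAA, the orphan receptor site AGGTCA and the cAMP element TGACGTCA. Capitals mark the matches, which do not overlap one another.
Per1, chr11:69098699-69098998, plus strand: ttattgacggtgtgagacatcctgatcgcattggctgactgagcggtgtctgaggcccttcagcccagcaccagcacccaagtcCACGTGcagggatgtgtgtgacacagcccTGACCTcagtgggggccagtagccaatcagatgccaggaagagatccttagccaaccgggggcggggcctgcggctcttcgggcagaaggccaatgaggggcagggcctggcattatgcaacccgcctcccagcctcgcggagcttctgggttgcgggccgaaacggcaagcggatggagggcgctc
Per3, chr4:151044616-151044915, minus strand: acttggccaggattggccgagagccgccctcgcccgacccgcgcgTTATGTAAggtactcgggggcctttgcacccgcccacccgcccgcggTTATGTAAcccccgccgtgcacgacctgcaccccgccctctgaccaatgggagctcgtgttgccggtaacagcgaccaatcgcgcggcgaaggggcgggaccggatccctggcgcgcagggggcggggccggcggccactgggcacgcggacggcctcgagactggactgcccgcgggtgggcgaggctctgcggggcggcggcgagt
Nr1d1, chr11:98775328-98775627, minus strand: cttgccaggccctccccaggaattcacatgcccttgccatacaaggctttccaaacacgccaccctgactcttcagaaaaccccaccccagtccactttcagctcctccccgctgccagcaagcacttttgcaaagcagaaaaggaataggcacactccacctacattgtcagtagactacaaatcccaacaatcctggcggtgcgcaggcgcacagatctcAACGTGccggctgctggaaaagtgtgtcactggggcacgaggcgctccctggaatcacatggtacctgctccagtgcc
Arntl, chr7:113207261-113207560, plus strand: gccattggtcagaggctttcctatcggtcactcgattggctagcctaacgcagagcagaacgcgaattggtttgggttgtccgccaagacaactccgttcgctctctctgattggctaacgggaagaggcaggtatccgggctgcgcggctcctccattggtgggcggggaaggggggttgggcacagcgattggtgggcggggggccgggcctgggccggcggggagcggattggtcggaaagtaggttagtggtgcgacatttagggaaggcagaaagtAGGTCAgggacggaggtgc
Cry1, chr10:85185005-85185304, minus strand: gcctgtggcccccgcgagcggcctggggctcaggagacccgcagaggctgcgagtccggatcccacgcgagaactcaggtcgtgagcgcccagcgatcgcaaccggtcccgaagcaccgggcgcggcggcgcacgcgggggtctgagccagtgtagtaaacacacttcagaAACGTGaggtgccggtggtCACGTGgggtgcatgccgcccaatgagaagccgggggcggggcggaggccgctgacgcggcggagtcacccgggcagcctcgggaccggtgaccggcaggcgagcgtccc

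Per1 held an E-box at -166 to -161 from its first listed start and a reversed AGGTCA after it, and Per3 held 2 D-boxes of the letters TTATGTAA, at -205 to -198 and -158 to -151. Nr1d1 and Cry2 held 1 reversed E′-box each, and Cry1 held a reversed E′-box and an E-box. Arntl held AGGTCA from base 32 to base 37 after its second listed start, and Clock and Nfil3 held it reversed. The windows of Dbp and the other windows of Per1, Arntl and Clock held no match. Among all 32851 windows of 300 bases, 7.15% held CACGTG, 4.68% CACGTT, 0.938% TTATGTAA, 0.119% TTACGTAA, 16.3% AGGTCA and 1.79% TGACGTCA. These letters describe the windows, and no binding was measured here.

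**Figure D3:**
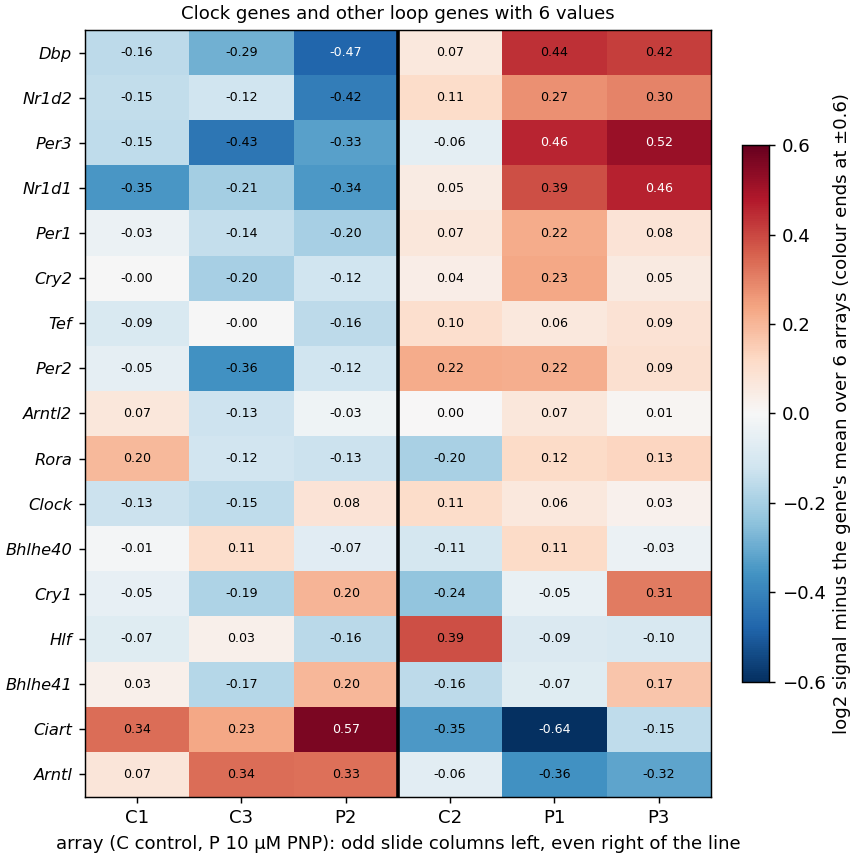
Scaled log2 signal minus the gene's mean over the 6 arrays, by colour and printed value, for the 9 members and 8 other loop genes with 6 values (rows, in order of their r with Dbp) on the 6 arrays (columns), with odd slide columns left and even ones right of the line. Dbp, Nr1d2, Per3 and Nr1d1 are high on P1 and P3 and low on P2, and Arntl and Ciart are the reverse.

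Other genes of the loop were read from a list of 10, of which 8 were tested. None passed, 5 had a positive and 3 a negative difference, and the median was 0.02, against 0.04 over all genes. Nr1d2, which encodes REV-ERBβ, had 0.37, 0.63 and 0.40 on controls and 0.80, 0.10 and 0.82 with PNP. That is close to the order of Dbp (r = 0.97), with PNP replicates 1 and 3 highest and PNP replicate 2 lowest, and the Nr1d2 difference was 0.11 (SE 0.19, adjusted p = 0.958).

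Ciart encodes CHRONO, a repressor of the activators. Its signals of -1.72, -2.41 and -1.83 on controls and -2.70, -1.49 and -2.21 with PNP ran against Dbp (r = -0.88), and its difference was -0.15 (SE 0.30, adjusted p = 0.961). Ciart and Arntl were both lowest on PNP replicate 1. Tef and Hlf, which bind D-boxes as DBP does, differed by -0.0063 (SE 0.11, adjusted p = 0.998) and -0.23 (SE 0.13, adjusted p = 0.846). For Hlf, control replicate 2 (-3.34) carried most of the difference, against -3.80 and -3.70 in its group and values between -3.89 and -3.82 in PNP arrays. Bhlhe41 and Bhlhe40, repressors that compete for E-boxes, differed by 0.20 (SE 0.11, adjusted p = 0.847) and 0.0077 (SE 0.10, adjusted p = 0.997). Arntl2, a relative of Arntl, differed by 0.04 (SE 0.10, adjusted p = 0.967) and Rora by 0.08 (SE 0.13, adjusted p = 0.955), and Npas2, which can stand in for Clock, was well above background on 0 arrays.

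Genes that modify clock proteins had 11 of 15 members tested, 5 with a positive and 6 with a negative difference and 0 that passed. Among all genes 63% had a positive difference. Fbxl21, an F-box protein that binds cryptochromes, differed by 0.31 (SE 0.15, adjusted p = 0.804). Its controls had -4.33, -4.81 and -4.82 and its PNP arrays -4.48, -4.30 and -4.24, with control replicate 1 inside the PNP values. Csnk1d, a kinase that phosphorylates PER proteins, differed by 0.20 (SE 0.11, adjusted p = 0.837). It had 2.02, 1.97 and 2.00 on controls and 2.29, 2.28 and 2.01 with PNP, so that PNP replicate 3 lay at the control level.

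Clock output genes had 8 of 10 members tested, 7 with a positive and 1 with a negative difference and 0 that passed. The difference was positive for 63% of all genes. The median was 0.07 over the output genes tested and 0.04 over all genes. Vegfa, an angiogenic factor, differed by 0.18 (SE 0.13, adjusted p = 0.892) on 2 PNP arrays, and Por, the electron donor of cytochromes P450, by 0.18 (SE 0.15, adjusted p = 0.916). Por had 2.33, 2.46 and 2.17 on controls and 2.70, 2.21 and 2.59 with PNP, again with PNP replicate 2 apart from the other PNP arrays (r with Dbp 0.97).

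Genes of the glucocorticoid and cAMP inputs that reset clocks had 10 of 13 members tested, 8 with a positive and 2 with a negative difference and 0 that passed. Again 63% of all genes had a positive difference, and the median over the input genes tested was 0.11. Nr4a1, an orphan receptor induced by cAMP, differed by 0.22 (SE 0.13, adjusted p = 0.878) on 2 arrays of each group, and Dusp1, a phosphatase induced by glucocorticoids, by 0.20 (SE 0.13, adjusted p = 0.888). Among the input genes with 6 values, r with Dbp ran from -0.90 for Creb1 to 0.96 for Zbtb16, and was 0.95 for Klf9. The order of Dbp was thus not confined to the members and the other loop genes. Over the 4 lists together 37 of 48 genes were tested, 0 passed by limma, 0 had an unadjusted p below 0.05 (6.52% of all genes), and the PNP values lay wholly above the controls for 4 and wholly below for 2. Over all genes those shares were 9.66% above and 3.75% below, so the 4 and 2 of 37 lay near them. The median was 0.06, against 0.04 over all genes. These lists were made with earlier results of these data known, and 2 genes had been taken out of them. The counts are therefore not independent of the data.

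Of the 3 Leydig genes tested, Star and Nr5a1 had the smallest p. Star, which brings cholesterol into mitochondria, had -3.81, -3.84 and -3.77 on controls and -4.36, -3.77 and -4.27 with PNP, so that PNP replicate 2 kept the control level and the other PNP arrays lay below it (difference -0.33, SE 0.15, adjusted p = 0.791). Nr5a1, a master factor of steroid-producing cells, differed by 0.22 (SE 0.11, adjusted p = 0.812). Its PNP values of -2.01, -1.68 and -1.95 lay above its controls of -2.05, -2.08 and -2.17.

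The genes whose pattern over the 6 arrays was most like that of Cry1, by Pearson's r among 11101 genes with 6 values, were Ezhip (0.997), St6gal2 (0.993), Colq (0.991), Lbx2 (0.991) and 2210420H20Rik (0.990). Like Cry1, each was lowest on control replicate 2 and highest on PNP replicate 3. Their differences ran from 0.39 for Lbx2 to 0.52 for 2210420H20Rik, each with an adjusted p of 0.740. Cry1 was chosen for this as the member with the smallest p in earlier results. Genes picked for their likeness to Cry1 share its direction by that choice. Among the members the highest r with Cry1 was 0.41, for Per3, and 26.1% of genes had an r at least that high.

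**Figure D4:**
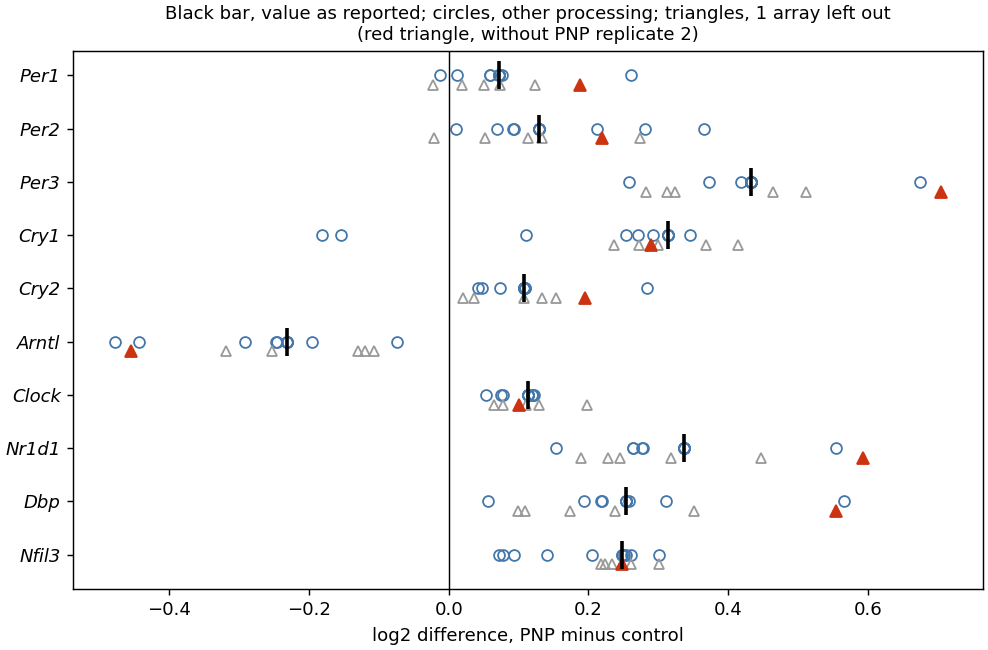
Log2 difference, PNP minus control (x), of each clock gene (y) as reported (black bar), under 11 other ways of processing (blue circles) and with 1 array left out at a time (triangles, red for PNP replicate 2). Per3 and Nr1d1 lie farthest right without PNP replicate 2, Dbp and Arntl lie farthest from 0 with slide row as a block (0.57 and -0.48) and nearly as far without PNP replicate 2 (0.56 and -0.45), and Cry1 crosses 0 in 2 settings, at -0.18 and -0.15.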

How the data were processed

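The 6 samples were total RNA of TM3 cells, 3 at 0 µM and 3 at 10 µM PNP for 24 h, grouped by the labels. The deposited scanner files give intensity values, made with Agilent Feature Extraction 11.5.1.1 per the file headers (10.7 in the submitters' processing notes). The processed signal is background-corrected and not scaled between arrays, and the values show that it has a positive floor for dim spots, which understates their differences. The labels name Cy3, while the files hold red-channel columns. The normalized table, as deposited, is in log2 units, with each column closest to its own array (r from 0.9996 to 1) and a median of 8.28, uncentred and in the direction of the scanner signal. Its making is not described in the sources read. Its 6 columns share that median and, once sorted, differ by at most 0.0033, as columns do after quantile normalization. It is therefore not an alternative independent of the quantile setting.

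Computations used R 4.3.3 and limma 3.58.1. From each log2 signal the 75th percentile of that array's non-control spots was subtracted, and spots of a probe were averaged without outliers. A probe was tested if well above background on all 3 arrays of a group, with at least 2 values per group. Unversioned RefSeq accessions (GRCm38.p6) named 33767 of 56605 probes, the gene names assumed in the design not being in the files. A gene's brightest tested probe stood for it. The test was lmFit and eBayes, two-sided, with Benjamini-Hochberg adjustment over 13138 genes, or over 27221 probes, at 0.05, and was tested on simulated data. The normexp alternative used the median spot signal with an offset of 50, since no mean signal column is in the files. Genes named are the members, the other loop genes on the array, the 2 of smallest p among the modifiers, outputs, inputs and Leydig genes each, and the 5 most like Cry1. Zbtb16, Klf9 and Creb1 were added for their r with Dbp, after the values were seen. The members and lists were chosen with earlier results of these data known, and 2 genes that had been in the other lists were taken out of them and their counts. Same-numbered samples were checked for pairing (correlations of deviations -0.31, -0.22 and -0.026). The arrays of each such pair stood in slide columns of opposite kind, odd and even. The check therefore cannot decide whether the numbers pair the samples, and the main test treated them as unpaired.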

Additional observations from a re-analysis of the deposited data

How the results depend on the processing

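No clock gene passed in any of 17 alternatives, and 8 to 9 of the 10 had a positive difference throughout, against 44.2% (median scaling) to 70.6% (no filter on dim probes) of all genes. With slide column as a block, the median difference was 0.07 over the members and 0.03 over all genes. The members at an unadjusted p below 0.05 by limma were 2 by quantile normalization (Cry1 and Nfil3) and 3 with normexp (Cry1, Nfil3 and Arntl). With normexp 989 of 13138 genes were at that level. There were 0 such members with outlier spots kept, in the deposited values, and with replicate number or slide row as a block. Leaving out 1 array gave 0 to 5. Cry2, Per3, Arntl, Clock, Nr1d1, Dbp and Nfil3 kept their direction in all 17. Cry1 turned to -0.15 with outlier spots kept and to -0.18 in the authors' deposited normalized values, both through the second probe, which is then the brighter. Per1 turned to -0.012 with slide column as a block, and leaving out 1 array at a time gave -0.022 to 0.19 for Per1 and -0.021 to 0.27 for Per2. Over all genes, 0 passed, with 856 at an unadjusted p below 0.05 (660 higher, 196 lower; 314 and 349 with median scaling, 481 and 306 by quantile normalization, 462 and 343 from the deposited log2 table). Slide column as a block gave 1 gene that passed, no filter on dim probes gave 1303 at an unadjusted p below 0.05, and leaving out 1 array gave 0 to 1 that passed and 344 to 1745. With the replicate number as a block, 0 genes passed and 605 had an unadjusted p below 0.05, and the 10 members had an adjusted p of 0.984. That slide row was tried as a block was decided after the data were seen. With 3 arrays a group, a member's difference is known to about ± 0.33 log2 units, and Nfil3 rests on 2 PNP arrays.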
